A study of Mus musculus with 8 samples.

Results

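Histone H3.3 is made from a pair of genes, H3f3a and H3f3b, and reads were also counted on H3f3c and Gm12657, copies whose coding region is nearly that of H3f3a. These 4 genes were taken by their symbols from a table of 21532 genes measured in the liver of db/db mice. The db mutation breaks the leptin receptor, and these mice become obese and diabetic. All 8 mice were male and db/db, on a C57BL/6J background. From 8 weeks of age, 4 mice received the AF1 peptide and 4 received what the study calls control, at 5 mg/kg body weight by retro-orbital injection, 2 times per week for 5 weeks. The AF1 peptide is a short peptide derived from estrogen receptor α, with parts of the receptor sequence removed, and it carries a FITC-labelled TAT sequence. What the control injection contained is given only as "control". Each mouse gave 1 stranded mRNA library of frozen liver. The comparison asked how the livers of AF1 peptide mice differed from those of control mice. The group was chosen by the lower normalized count of Gm12657 in that same comparison, and the other 3 genes were taken in by name with results known, so the values of the copies are given as a description.

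Unlike the canonical H3 histones, which are made while DNA is copied, H3.3 is made and placed into chromatin throughout the cell cycle, and it therefore builds up in cells that seldom divide, such as hepatocytes. The HIRA complex places it at active genes and enhancers, and the DAXX and ATRX pair places it at telomeres and repeats. H3f3a and H3f3b encode the same protein with different codons. Processed copies of H3f3a, which arise when an mRNA is copied back into the genome, lie on several chromosomes. For H3f3c and Gm12657, GENCODE M21 gives the type processed pseudogene, whereas RefSeq GRCm38.p6 gives protein coding.

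The coding regions show how alike the 4 genes are at the level a read can see. Their first 300 bases, which hold every difference of H3f3c and Gm12657 from H3f3a, are given 5′ to 3′ from the transcripts of GENCODE M21 (GRCm38), with capitals at each base that differs from H3f3a:
H3f3a: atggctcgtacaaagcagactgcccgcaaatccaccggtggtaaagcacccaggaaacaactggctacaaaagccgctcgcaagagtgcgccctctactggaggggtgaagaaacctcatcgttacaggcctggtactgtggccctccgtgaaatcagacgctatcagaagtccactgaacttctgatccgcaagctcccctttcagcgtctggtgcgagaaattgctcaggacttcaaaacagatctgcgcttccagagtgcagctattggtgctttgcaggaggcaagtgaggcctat
H3f3c: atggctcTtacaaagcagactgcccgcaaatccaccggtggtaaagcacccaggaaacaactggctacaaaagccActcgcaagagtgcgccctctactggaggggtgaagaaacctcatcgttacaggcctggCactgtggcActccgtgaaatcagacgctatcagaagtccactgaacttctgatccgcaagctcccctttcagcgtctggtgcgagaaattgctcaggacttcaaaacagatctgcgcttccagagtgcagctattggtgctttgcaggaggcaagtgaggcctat
Gm12657: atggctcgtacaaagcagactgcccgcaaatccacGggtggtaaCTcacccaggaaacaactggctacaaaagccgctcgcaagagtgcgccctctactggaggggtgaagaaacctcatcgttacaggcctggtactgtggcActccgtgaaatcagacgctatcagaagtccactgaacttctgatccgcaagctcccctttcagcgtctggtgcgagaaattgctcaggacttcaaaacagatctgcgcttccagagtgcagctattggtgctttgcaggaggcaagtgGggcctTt
H3f3b: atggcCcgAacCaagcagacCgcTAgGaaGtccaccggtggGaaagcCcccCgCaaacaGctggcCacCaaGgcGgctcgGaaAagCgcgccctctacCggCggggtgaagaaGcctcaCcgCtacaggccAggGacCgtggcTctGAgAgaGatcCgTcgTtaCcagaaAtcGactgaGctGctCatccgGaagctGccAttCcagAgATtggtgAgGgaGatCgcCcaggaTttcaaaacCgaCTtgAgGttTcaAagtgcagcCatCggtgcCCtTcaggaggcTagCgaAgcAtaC

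Each of the 4 coding regions was 411 bases long. H3f3c differed from H3f3a at 4 bases (99.0% identity), which were G8T, G76A, T135C and C144A, with the base of H3f3a first and positions counted from 1 at the A of the start codon. Gm12657 differed at 6 bases (98.5% identity), which were C36G, A45C, G46T, C144A, A293G and A299T. C144A was the 1 substitution that both copies carried, and the copies differed from each other at 8 bases. Past its last difference, H3f3c was identical to H3f3a for 267 bases, and the longest identical stretch of Gm12657 was 148 bases. H3f3b differed from H3f3a at 95 bases, 81 of them at the third position of a codon, and no identical stretch was longer than 23 bases.

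**Figure D1:**
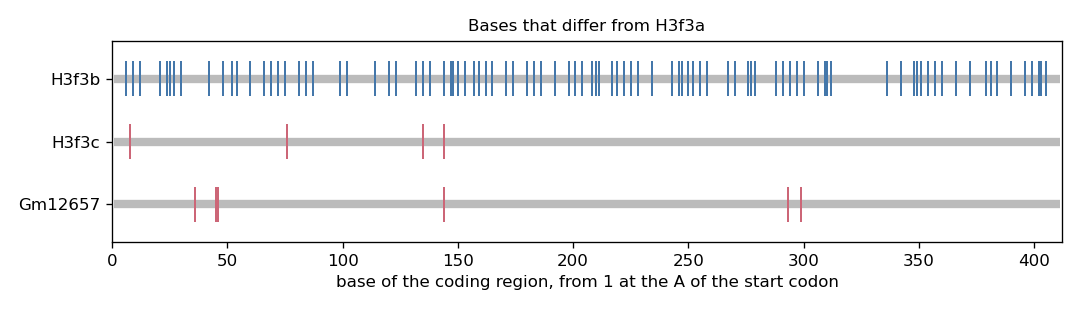
Positions along the 411-base coding region (x axis, in bases from the start codon) at which H3f3b, H3f3c and Gm12657 differ from H3f3a, each difference drawn as a vertical line. The 95 differences of H3f3b run through the whole region, whereas the 4 of H3f3c lie in its first part and the 6 of Gm12657 leave long identical stretches.

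How far reads can be placed on 1 gene was measured by cutting each gene's transcripts into 50-base words. Words were matched on both strands, so genes on the opposite strand, such as Gm17275 over H3f3a, count as well. Of the words of H3f3c, 73.8% also occurred in another gene and 67.7% in H3f3a, and of those of Gm12657, 72.1% occurred in another gene and 58.0% in H3f3a. The copies shared 49.7% of their words with each other. Of the words of H3f3a, which has long untranslated parts of its own, 27.1% occurred elsewhere and 7.8% in the other 3 genes. Of those of H3f3b, 6.86% occurred elsewhere, none of them in the other 3 genes. With 100-base words the shares were 56.7% for H3f3c, 51.3% for Gm12657, 20.8% for H3f3a and 1.92% for H3f3b. In GENCODE M21 the transcripts of both copies hold only the coding region, so untranslated parts of the copies were not compared. How reads that match more than 1 gene were counted is not given in the sources used here, and the counts of H3f3a, H3f3c and Gm12657 are uncertain to that degree.

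The libraries held between 23031880 and 45117528 counted reads. AF1 peptide replicate 1 stood apart from the other 7 mice on the first principal component, which held 39.3% of the variance, and the values of the 4 genes without it are given below. Of the 5 hepatocyte markers (Alb, Apoa1, Ttr, Cyp2e1 and Serpina1a), none was called between the groups. On average 4 of them were lower and 1 higher in AF1 peptide mice, with a median log2 fold change of −0.24, beside −0.01 over all tested genes. The other 22 markers, of Kupffer cells, sinusoidal endothelium, stellate cells, cholangiocytes, lymphocytes and red blood cells, held 2 calls, both lower in AF1 peptide mice: Adgre1, a macrophage marker (log2 fold change −0.66 ± 0.27, SE), and Dcn, a matrix proteoglycan of stellate cells (−0.42 ± 0.18), where 1.90% of all tested genes were called lower. The call of Adgre1 was lost in 4 of 18 alternatives, with its own variance and without control replicates 2 or 4 or AF1 peptide replicate 1 (−0.45). That of Dcn was lost in 7 of 18, with a replicate block, without trend, with its own variance, and without control replicates 1, 2 or 4 or AF1 peptide replicate 2 (−0.25). The other stellate cell markers did not share its fall, with −0.10 ± 0.15 (SE) for Lrat and 0.19 ± 0.13 for Reln. Ms4a1, a B cell marker, was below the filter, and no marker was at 0 in any mouse.

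The values below are normalized counts, which correct reads for the size factor of their library but not for gene length, so genes are not ranked by level. Read counts behind the copies were small. H3f3c had between 61 and 256 reads in a library and Gm12657 between 23 and 142, whereas H3f3a had between 894 and 2578 and H3f3b between 1681 and 4724.

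Compared to control mice, both copies were lower in AF1 peptide mice, by 43.1% for Gm12657 and 35.0% for H3f3c on group means, while H3f3a and H3f3b were lower by 19.5% and 8.39% with overlapping groups. The normalized count of Gm12657 was 117, 74.8, 67.0 and 81.2 in control replicates 1 to 4 and 34.5, 42.0, 61.0 and 56.0 in AF1 peptide replicates 1 to 4. The highest AF1 peptide mouse lay below the lowest control mouse, and control replicate 1 lay above the other 3 control mice. The group means were 85.0 ± 22.1 and 48.4 ± 12.2 (SD, n = 4 each), and the log2 fold change was −0.80 ± 0.24 (SE), with a 95% interval of −1.33 to −0.27. Without control replicate 1 the log2 fold change was −0.64, and without AF1 peptide replicate 1, the lowest mouse, it was −0.66. In bulk liver, fewer cells of a type and less RNA per cell cannot be told apart.

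For H3f3c the 4 AF1 peptide mice lay close together. Its normalized count was 192, 182, 152 and 214 in control replicates 1 to 4 and 125, 111, 122 and 123 in AF1 peptide replicates 1 to 4. The groups did not overlap, and the means were 185 ± 25.7 and 120 ± 6.10 (SD, n = 4 each). The log2 fold change was −0.61 ± 0.14 (SE), with a 95% interval of −0.91 to −0.31, and −0.63 without AF1 peptide replicate 1. Its adjusted p over all tested genes was 0.763 (limma with Benjamini-Hochberg adjustment), the smallest value that any gene reached. Other genes were tied at that value, H3f3a and Plaa among them, so it does not set H3f3c apart.

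H3f3a, the parent that the copies resemble, was lower on average but overlapped between the groups. Its normalized count was 1906, 2067, 1566 and 2159 in control replicates 1 to 4 and 1738, 1633, 1244 and 1582 in AF1 peptide replicates 1 to 4. Replicate 3 was the lowest mouse of each group, and 3 of the 4 AF1 peptide mice lay above control replicate 3. The means were 1925 ± 261 and 1549 ± 214 (SD, n = 4 each). The log2 fold change was −0.31 ± 0.14 (SE), with a 95% interval of −0.61 to −0.01 and an adjusted p of 0.763 (limma), and it was −0.37 without AF1 peptide replicate 1. The change was under 1.3-fold and the gene was not called, but it passed the call rule without control replicate 3 (−0.41) and with libraries scaled to equal totals (−0.40). Antisense genes H3f3aos and Gm17275 overlap exons of H3f3a, and neither was in the table, so whether their reads were counted on H3f3a is not given in the sources used here.

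H3f3b, which encodes the same protein and shares no 50-base word with the other 3 genes, had the smallest log2 fold change of the 4. Its normalized count was 3893, 3548, 3540 and 3717 in control replicates 1 to 4 and 3600, 3070, 3368 and 3426 in AF1 peptide replicates 1 to 4. Only AF1 peptide replicate 1 reached into the control range. The means were 3674 ± 167 and 3366 ± 221 (SD, n = 4 each), and the log2 fold change was −0.13 ± 0.09 (SE), with a 95% interval of −0.33 to 0.07 and an adjusted p of 0.791 (limma). It was −0.22 with libraries scaled to equal totals, −0.16 without AF1 peptide replicate 1 and −0.08 without AF1 peptide replicate 2.

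**Figure D2:**
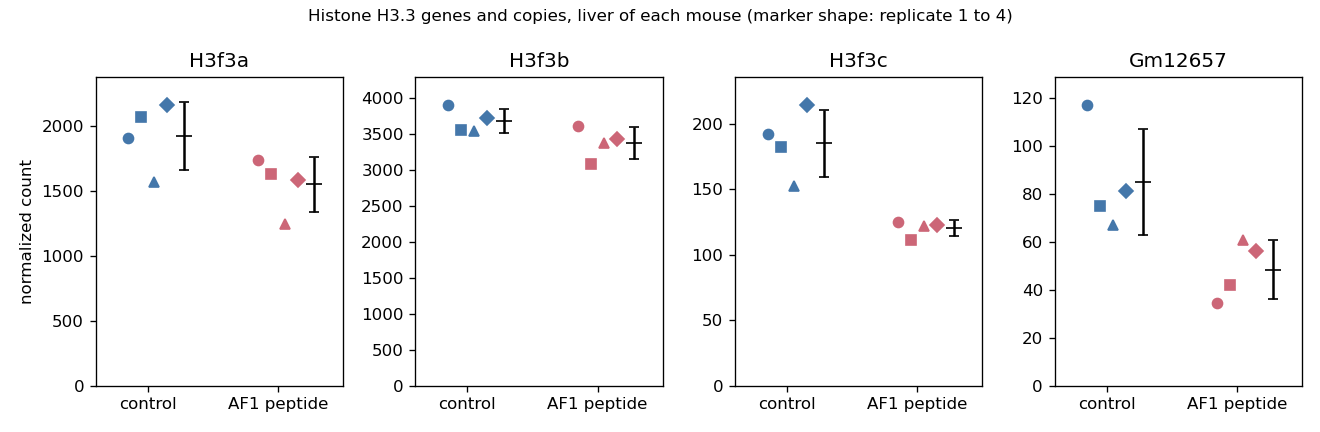
Normalized counts (y axis, each panel from 0) of H3f3a, H3f3b, H3f3c and Gm12657 in the liver of each of 4 control and 4 AF1 peptide mice (x axis); marker shapes are replicates 1 to 4, and the black bar is the mean with SD. The groups overlap for H3f3a and H3f3b, and every AF1 peptide mouse lies below every control mouse for H3f3c and Gm12657.

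A gene was called when its unadjusted p was under 0.05 in limma and its change above 1.3-fold, and the 15989 genes whose mean normalized count reached 10 were tested, all 4 members among them. Of the members, 2 were called lower, the copies, against 1.90% of all tested genes called lower (304 genes). None of the members was called higher, against 1.79% of all tested genes (286 genes). No gene passed an adjusted p of 0.05 in limma, where 990 had an unadjusted p under 0.05, or in edgeR, and 3 did in DESeq2. With libraries scaled to equal totals the split was 603 lower and 122 higher. The same 2 members did not overlap between the groups, against 1.85% of all tested genes with every AF1 peptide mouse below every control mouse. As the contrast chose these genes, nothing is read from either count. Of all tested genes, 1.11% had a log2 fold change as low as that of Gm12657, 2.47% as low as that of H3f3c, 10.6% as low as that of H3f3a and 28.7% as low as that of H3f3b, beside a median of −0.01 over all tested genes.

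When the parents were summed in each mouse, H3f3a and H3f3b together had a log2 fold change of −0.19 ± 0.10 (SE; 95% interval −0.40 to 0.02). H3f3c and Gm12657 together had one of −0.67 ± 0.14 (SE; 95% interval −0.97 to −0.36). The sum of the copies was 309, 257, 219 and 296 in control replicates 1 to 4 and 160, 153, 183 and 179 in AF1 peptide replicates 1 to 4, against sums of the parents between 5106 and 5876 in control mice and between 4612 and 5338 in AF1 peptide mice. The copies thus carried a small part of the reads counted on the 4 genes, and the log2 fold change of all 4 summed was −0.21 ± 0.10 (SE).

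As a percentage of the 4 genes, the copies made up 5.06%, 4.38%, 4.12% and 4.79% in control replicates 1 to 4 and 2.90%, 3.16%, 3.81% and 3.45% in AF1 peptide replicates 1 to 4. The groups did not overlap, and the means were 4.59% ± 0.419 and 3.33% ± 0.392 (SD, n = 4 each). Set against H3f3a alone, however, each copy overlapped between the groups. H3f3c was between 8.81% and 10.1% of H3f3a in control mice and between 6.82% and 9.80% in AF1 peptide mice, where replicate 3 was the mouse inside the control range. Gm12657 was between 3.62% and 6.14% of H3f3a in control mice and between 1.99% and 4.90% in AF1 peptide mice. Control replicate 1 gave the highest of these values, and without it the difference between the group means of Gm12657 over H3f3a was −0.637 percentage points, against −1.20 with all mice. AF1 peptide replicate 3, which had the lowest H3f3a and the highest Gm12657 of its group, was thus the highest for both copies relative to H3f3a.

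**Figure D3:**
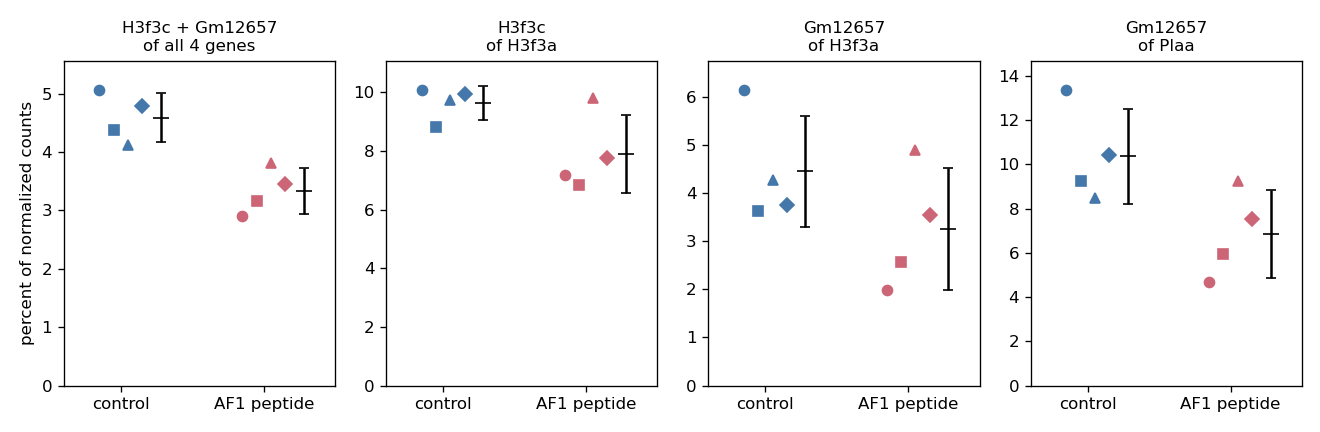
Percent of normalized counts (y axis, each panel from 0) in 4 control and 4 AF1 peptide mice (x axis) for the copies over all 4 genes, H3f3c over H3f3a, Gm12657 over H3f3a and Gm12657 over Plaa, its host gene; marker shapes are replicates 1 to 4, and the black bar is the mean with SD. The groups are apart in the first panel (4.12% to 5.06% against 2.90% to 3.81%) and overlap in the other 3.

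Other copies of H3.3 in the table were not used in the choice of members. As Gm12657 was chosen for its fall, a difference between it and these copies is not read as a result. In GENCODE M21, 15 further genes shared at least 20% of their 50-base words with H3f3a or H3f3b, and 9 of them were in the table. Of these, 7 passed the filter on low values, 6 with a negative and 1 with a positive log2 fold change, and the groups of all 7 overlapped. These 7 shared between 30.6% (Gm8524) and 58.3% (Gm6421) of their words with the parents. Their counts are thus uncertain for the same reason as those of H3f3c and Gm12657. None of the 7 was called, and adjusted p ranged from 0.763 to 0.898 (limma). Of all tested genes, 1.90% were called lower and 1.79% higher, and 1.85% had every AF1 peptide mouse below every control mouse. Beside such small shares, nothing is read from the lack of a call or of separate groups among these 7 copies. Their median log2 fold change was −0.13, with a range from −0.20 for Gm6421 to 0.10 for Gm6485, which was −0.00084 without AF1 peptide replicate 2.

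Several of these copies are as close to H3f3a as the members are. Gm10257 was 4 edits (changed, added or lost bases) from the coding region of H3f3a, as H3f3c is, and its normalized count was 623, 587, 607 and 723 in control replicates 1 to 4 and 596, 648, 498 and 587 in AF1 peptide replicates 1 to 4. Its groups overlapped, with a log2 fold change of −0.13 ± 0.11 (SE; 95% interval −0.38 to 0.12), and −0.06 without control replicate 4 and −0.05 without AF1 peptide replicate 3. H3f3a-ps2, at 5 edits, had a log2 fold change of −0.13 ± 0.10 (SE), Gm6421, also at 5 edits, one of −0.20 ± 0.10, and H3f3a-ps1, at 8 edits, one of −0.13 ± 0.10. Gm8524 (37 edits) and Gm6749 (22 edits) had −0.17 ± 0.15 and −0.16 ± 0.23. Gm6485, the 1 with a positive log2 fold change (0.10 ± 0.14), was the farthest of the tested copies from the coding region of H3f3a, at 118 edits. Edits were counted from H3f3a only, so likeness to H3f3b is not in this distance. By words shared with either parent, Gm6485 (31.3%) was not the least alike, as Gm8524 shared 30.6%. Gm45734 and Gm47655 stayed below the filter, with group means of 8.45 and 3.58 in control mice and 7.51 and 2.46 in AF1 peptide mice. Summed, the 9 copies had a log2 fold change of −0.13 ± 0.10 (SE), which was −0.22 with equal totals, −0.08 without control replicate 4 and −0.08 without AF1 peptide replicate 3. As a percentage of H3f3a, this sum was between 121% and 163% in control mice and between 140% and 174% in AF1 peptide mice. The summed count of these 9 copies, not scaled for length, was thus above that of H3f3a in every mouse. Whether a read that matches several copies is in the sum more than once is not given in the sources used here.

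**Figure D4:**
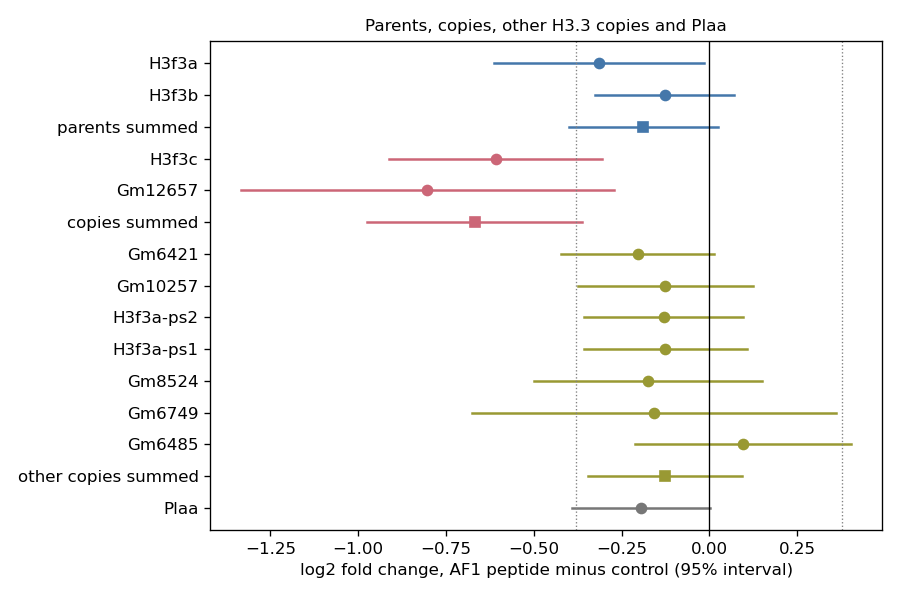
Log2 fold change of AF1 peptide minus control (x axis) with its 95% interval for the parents, the 2 copies, 7 other H3.3 copies, Plaa and the sums of each set (squares); dotted lines mark 1.3-fold. H3f3c and Gm12657 lie at −0.61 and −0.80, and the 7 other copies lie between −0.20 and 0.10.

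The surroundings of the 4 genes were compared as well, by name, since the table was made on mm39 and the annotation at hand is of GRCm38, so that no positions are given. Gm12657, on chromosome 4, lies inside Plaa on the opposite strand, without overlap of exons in GENCODE M21. Plaa encodes a phospholipase A2-activating protein that takes part in ubiquitin-dependent sorting. Its normalized count was 876, 810, 791 and 780 in control replicates 1 to 4 and 737, 707, 659 and 742 in AF1 peptide replicates 1 to 4. Every AF1 peptide mouse thus lay below every control mouse, as for 1.85% of all tested genes. Whether reads from Plaa were counted on Gm12657 is not given in the sources used here. The difference in Plaa was small, with a log2 fold change of −0.20 ± 0.09 (SE; 95% interval −0.39 to 0.0016) and an adjusted p of 0.763 (limma). Gm12657 was between 8.47% and 13.4% of Plaa in control mice and between 4.68% and 9.25% in AF1 peptide mice, with overlapping groups.

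The other 3 neighbours within 5 kb that were in the table overlapped between the groups. Ift74, which encodes a protein of intraflagellar transport and lies 2947 bases from Gm12657 in RefSeq, had a log2 fold change of −0.06 ± 0.15 (SE). Ndufaf1, an assembly factor of respiratory complex I near H3f3c on chromosome 2, had one of 0.07 ± 0.18, and Unk, near H3f3b on chromosome 11, one of −0.02 ± 0.10. Adjusted p values were 0.937, 0.942 and 0.976 (limma).

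The promoter windows of the parents held more GC and more CpG than those of the copies. In GC content H3f3b and H3f3c lay nearest the median, whereas in CpG H3f3b lay well above it. In the 300-base windows around the start sites that RefSeq gives for GRCm38.p6, the GC content was 74% for H3f3a, 55% for H3f3b, 45.7% for H3f3c and 42.7% for Gm12657, beside a median of 52.7% over 32851 promoters. The number of CpG dinucleotides was 39 for H3f3a and 24 for H3f3b, against 9 for H3f3c, none for Gm12657 and a median of 7. Windows with at least as many CpG made up 4.45% of all promoters for H3f3a and 45.8% for H3f3c.

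Within the groups, the 4 genes did not move together in a way that passed correction. Deviations from the group means over the 8 mice were compared for 6 pairs of genes, with exact two-sided permutation over 576 reorderings within groups. The closest pair was H3f3b and H3f3c, which share no word, with Pearson's r = 0.59 (exact permutation p = 0.0833, adjusted 0.490) and Spearman's rho = 0.81 (exact permutation p = 0.0174, adjusted 0.104). It was r = 0.60 without the 2 mice farthest from the median, and r = 0.58 without control replicate 1, where its exact permutation p passed adjustment (0.0417). H3f3a and H3f3c had r = 0.57 (exact permutation p = 0.163, adjusted 0.490) and rho = 0.40 (exact permutation p = 0.302, adjusted 0.510), and r = 0.37 without the 2 farthest mice. Leaving out 1 mouse moved it between 0.087, without control replicate 3, and 0.85, without AF1 peptide replicate 3. H3f3c and Gm12657 had r = 0.35 and rho = 0.43 (exact permutation p = 0.441 and 0.340, adjusted 0.648 and 0.510), and r = 0.33 without the 2 farthest mice and 0.036 without control replicate 3. H3f3a and Gm12657 had r = −0.29 and rho = −0.50 (exact permutation p = 0.5 and 0.278, adjusted 0.648 and 0.510), and r = −0.85 without the 2 farthest mice. H3f3b and Gm12657 had r = 0.28 and rho = 0.24 (exact permutation p = 0.540 and 0.630, adjusted 0.648 and 0.630), and r = 0.86 without the 2 farthest mice, so that it rested on which mice were kept. H3f3a and H3f3b had r = 0.18 and rho = 0.31 (exact permutation p = 0.693 and 0.521, adjusted 0.693 and 0.625), and r = −0.01 without the 2 farthest mice.

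Among 12443 genes whose mean normalized count reached 50, those whose deviations over the 8 mice were most like each member were listed, as a description. For H3f3a they were Asah2, a ceramidase (r = 0.99), Itprid2 (r = 0.99) and Azin1, an antizyme inhibitor (r = 0.97). For H3f3b they were Rpl9, a protein of the large ribosomal subunit (r = 0.99), Anapc7, a subunit of the anaphase-promoting complex (r = 0.98), and Hint1 (r = 0.97). For H3f3c they were Snap23, a membrane fusion protein (r = 0.96), Zfp780b (r = 0.95) and Ppip5k2, an inositol phosphate kinase (r = 0.94). For Gm12657 they were Sdccag8, a centrosomal protein (r = 0.99), Lrrk1, a kinase (r = 0.98), and Galnt15, a glycosyltransferase (r = 0.97). No gene appeared for more than 1 member. These are the highest of 12443 values of r over only 8 mice, so high values come with the choice itself. Nothing is read from them or from the lack of shared genes.

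Genes that handle H3.3 were taken as lists. Of 12 genes that place H3.3 or chaperone histones (HIRA complex, DAXX, ATRX and others), all were tested, 6 were higher and 6 lower, and the median log2 fold change was 0.01, beside −0.01 over all genes. The 1 called was Ubn2, a subunit of the HIRA complex, which rose (as 1.79% of all tested genes did) from 592 ± 171 to 833 ± 194 normalized counts (SD, n = 4 each), with a log2 fold change of 0.51 ± 0.22 (SE) and an adjusted p of 0.763 (limma). Its groups overlapped (408 to 820 against 587 to 1056), and the call was lost in 9 of 18 alternatives, among them those without control replicates 1, 2 or 4 or without AF1 peptide replicates 2, 3 or 4. Hira itself had a log2 fold change of −0.13 ± 0.11, Daxx −0.06 ± 0.12 and Atrx −0.02 ± 0.15. Of the other HIRA complex genes listed, Cabin1 had 0.24 ± 0.10, under 1.3-fold, and Ubn1 had 0.03 ± 0.12.

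Genes of canonical H3 and its replication-coupled placement gave no call. Of 15 listed, 14 were in the table and 5 passed the filter, with a median of −0.11, and the smallest p belonged to Chaf1b, a subunit of the chromatin assembly factor CAF-1 (log2 fold change −0.22 ± 0.23, SE; adjusted p 0.852, limma). It was −0.37 without control replicate 1, −0.12 without control replicate 4 and −0.03 without AF1 peptide replicate 2. The canonical H3 genes that passed were H3c14 and H3c15, with group means between 15.5 and 20.7. Of 7 proliferation genes all were lower, with a median of −0.40, and 1 was called, Mcm5, a subunit of the replicative helicase, which fell from 119 ± 22.9 to 88.4 ± 14.6 (SD, n = 4 each; log2 fold change −0.42 ± 0.19, SE; adjusted p 0.763, limma), beside 1.90% of all tested genes called lower. Its groups overlapped, and the call was lost in 7 of 18 alternatives: with its own variance, in DESeq2, with equal totals, and without control replicates 2 or 4 or AF1 peptide replicates 2 or 3.

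Of 9 other histone variants made outside DNA replication, 8 were tested and none was called, with 4 higher, 4 lower and a median of 0.0027. H1f0, the linker histone of resting cells, had the smallest p, and its groups did not overlap (2336 to 2366 in control mice against 1813 to 2316 in AF1 peptide mice; log2 fold change −0.17 ± 0.09, SE; adjusted p 0.766, limma), as for 1.85% of all tested genes. Without AF1 peptide replicate 1 its log2 fold change was −0.10, and with equal totals −0.26. H2az1, a histone H2A variant and the member with the largest change, named after its values were seen, had a log2 fold change of −0.38 ± 0.21 (SE) and was called without AF1 peptide replicate 1 (−0.57). Of 16 enzymes and readers of H3 methylation at lysines 27 and 36, 9 were higher and 7 lower, none was called and the median was 0.01. Setd2, the enzyme that sets trimethylation at H3 lysine 36, had the smallest p (log2 fold change 0.25 ± 0.12, SE; adjusted p 0.763, limma), and 0.16 with equal totals.

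The summed level of the Kupffer cell and macrophage markers was between 2876 and 3507 in control mice and between 1451 and 3512 in AF1 peptide mice, and that of the stellate cell markers between 2419 and 2812 and between 1761 and 2662. Most of the stellate cell sum was Dcn, between 1412 and 2016 in control mice and between 919 and 1612 in AF1 peptide mice. The 5 red blood cell markers were all lower on average, with sums between 34147 and 123375 in control mice and between 27111 and 51923 in AF1 peptide mice, and none was called. The part of these cells in the values of H3f3c and Gm12657 was not tested.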

How the data were processed

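The authors used TrimGalore 0.6.7 for trimming, HISAT2 for alignment, SAMtools 1.17 for sorting and GenomicAlignments for counting reads per gene, on mm39 per the labels. The annotation, the use of strand, the handling of multiply matching reads and the normalization tool are not given in the sources used here. The deposited table holds a signal per gene and mouse, namely read counts corrected by library size factors. Whole reads could be recovered for 100% of 172256 values (tolerance 0.01), and the table held 21532 genes.

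Differences were fitted on log2(normalized count + 1) with limma 3.58.1 (trend) in R 4.3.3 over 15989 genes with a mean of at least 10, with Benjamini-Hochberg adjustment over all of them. A fold change is on that scale. Run on whole reads, edgeR 4.0.16 gave 344 calls higher and 283 lower, and DESeq2 1.42.0 gave 342 and 278. Fits were tested on simulated data. The alternatives were other pseudocounts, scalings, filters and variance models, a replicate block and leaving out each mouse. Values ± are SD or SE as stated. Intervals of fold changes are confidence intervals for the difference between the group means on the log2 scale, built from the SE of the fit. They rest on 4 mice per group and are not the range of values among mice.

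The members and gene lists were chosen with earlier results of these data known. Named genes were the members, other H3.3 copies, genes within 5 kb, the 3 genes most like each member, and for each list the called genes or else the one with the smallest p. The lists and the marker sets were written by name. Sequences come from GENCODE M21 and RefSeq tables of GRCm38, matched by symbol for all 4 members. Protein sequences were not used here.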

Additional observations from a re-analysis of the deposited data

Results flagged for a closer look

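Among 46 groups of 4 mice examined (13 H3.3 genes and copies, Plaa and 9 ratios, in each treatment group), 2 held a mouse whose gap to the nearest other mouse, divided by the range of its group, exceeded Dixon's 95% critical value, which chance gives in about 1 of 20 groups. The normalized count of Gm8524 was 115 in AF1 peptide replicate 2 and between 88.7 and 92.3 in the other 3 AF1 peptide mice (ratio 0.863). The normalized count of H3f3a-ps2 was 572 in control replicate 4 and between 488 and 495 in the other 3 control mice (ratio 0.921). The 4 members had no such mouse.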

How the results depend on the processing

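With 4 mice per group and as few as 23 reads of Gm12657 in a library, small differences were not detectable. The log2 fold changes of Gm12657, H3f3c, H3f3b and of the summed parents and copies kept their direction and their side of the call rule under all 18 alternatives each. Leaving out 1 mouse gave −0.92 to −0.64 for Gm12657, −0.70 to −0.54 for H3f3c, −0.41 to −0.21 for H3f3a and −0.16 to −0.08 for H3f3b. H3f3a was called with equal totals (−0.40) and without control replicate 3 (−0.41); the cause was not tested. The same-numbered mice did not deviate together in every pair (r from −0.06 to 0.24), so numbers were not taken as pairs, and a replicate block left −0.80 for Gm12657, −0.61 for H3f3c, −0.31 for H3f3a and −0.13 for H3f3b, while the calls over all genes went to 341 higher and 392 lower. Calls over all genes went from 286 higher and 304 lower to 435 and 459 without the filter (more genes tested), to 122 and 603 with equal totals, to 506 and 484 with no fold threshold, to 0 and 0 at an adjusted p of 0.05, where 990 genes had an unadjusted p under 0.05, and to 197 lower with each gene's own variance. Leaving out 1 mouse gave 201 to 457 higher and 172 (without control replicate 2) to 486 lower (without AF1 peptide replicate 1). Of the genes in the 5 lists, 2 were called, against 1 with limma without trend or DESeq2, 0 with own variance or equal totals, and 0 to 4 when 1 mouse was left out, with 4 without AF1 peptide replicate 1. The 5 lists held 12, 5, 8, 16 and 7 tested genes. Over all tested genes, 1.79% were called higher and 1.90% lower, and nothing is read from the 2 calls. Alternatives for the lists, for the other copies and for Plaa were added after seeing the data. Signs turned for Ndufaf1 with equal totals (−0.017), and, when 1 mouse was left out, for Ndufaf1 (−0.050 to 0.20), Unk (−0.057 to 0.015) and Gm6485 (−0.00084 to 0.17). Correlations turned for H3f3a with H3f3b (−0.010 without the 2 farthest mice, −0.062 to 0.51 without 1), for H3f3a with Gm12657 (−0.79 to 0.065) and for H3f3b with Gm12657 (−0.044 to 0.92).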
